A study of Mus musculus with 8 samples.

Results

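The relaxin peptides and their receptors form a small hormone system, and 5 of its genes were followed here: the peptide genes Rln1 and Rln3 and the receptor genes Rxfp1, Rxfp2 and Rxfp3. They were taken by symbol from a table of read counts for 19884 mouse genes, in which each of the 5 symbols occurred once. The table covers untreated C57BL/6J wild-type females, 6 to 10 weeks old and mated with fertile males, on gestation day 4, with 4 whole brains and 4 whole uteri. Day 1 was the day of the vaginal plug, and pregnancy was checked by blastocysts flushed from the uterus. The labels give 4 mice for each organ and do not say whether a brain and a uterus came from the same mouse. All samples carry the same genotype, stage and lack of treatment, so the organ is the only contrast, and no unmated mouse or other day stands beside them. RNA was depleted of ribosomal RNA and sequenced from stranded libraries. Whole organs were used, so regions of the brain and layers of the uterus cannot be separated.

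Relaxin, which mice make from Rln1, is a peptide of the insulin superfamily best known as a hormone of the corpus luteum in pregnancy. It acts through RXFP1, a receptor with a large leucine-rich ectodomain that couples to the stimulatory G protein and raises cyclic AMP, and it is known in the uterus for effects on growth, matrix remodelling, vessels and the quiescence of the muscle. RXFP2 is the related receptor for insulin-like peptide 3. Relaxin-3, the product of Rln3, is a neuropeptide made by a small set of brainstem neurons centred on the nucleus incertus, and its receptor RXFP3 couples to inhibitory G proteins and is linked to arousal, stress and feeding.

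The peptides bind through a short helix of their B chain, where an arginine is followed by 3 residues, a second arginine, 2 residues and an isoleucine or valine. The codons of that stretch are shown because they mark the part of each ligand that meets its receptor, with the arginine and isoleucine or valine codons in capitals, read from the GENCODE M21 transcripts. They are codons 38 to 45 of 185 in Rln1 and codons 36 to 43 of 141 in Rln3.
Rln1: CGTgaatatgccCGTgaattgATC
Rln3: CGGgagttcatcCGCgcggtcATC
Both stretches hold the pattern, and the coding sequences of the related peptide genes Insl3, Insl5 and Insl6 do not. Of 21584 mouse coding sequences searched, 15.1% hold the same pattern somewhere, so its presence alone does not mark a relaxin.

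The 250 bases upstream of the RefSeq start sites are shown for Rln3 and Rxfp3, a ligand and its receptor that were both higher in brain, from the GRCm38.p6 build. Rln3 is read from chr8:84044980-84045229 and Rxfp3 from chr15:11037969-11038218, both on the minus strand, and capitals mark matches to TATAAA or AGGTCA on either strand.
Rln3: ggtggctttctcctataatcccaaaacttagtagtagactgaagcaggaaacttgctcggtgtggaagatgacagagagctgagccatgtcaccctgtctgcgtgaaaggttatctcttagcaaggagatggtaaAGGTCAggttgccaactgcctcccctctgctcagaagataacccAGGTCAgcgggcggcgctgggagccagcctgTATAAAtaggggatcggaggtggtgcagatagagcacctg
Rxfp3: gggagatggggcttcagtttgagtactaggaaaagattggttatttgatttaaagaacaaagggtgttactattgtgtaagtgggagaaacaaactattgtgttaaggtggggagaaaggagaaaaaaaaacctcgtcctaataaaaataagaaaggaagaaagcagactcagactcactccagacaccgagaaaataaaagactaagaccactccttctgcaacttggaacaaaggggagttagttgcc
The Rln3 stretch holds 1 match to TATAAA, the core of a TATA box, and 2 to AGGTCA, a half-site of nuclear receptors. Counted from the RefSeq start site, they begin at -40 for TATAAA and at -115 and -71 for AGGTCA. The Rxfp3 stretch holds none of the 4 motifs searched, which also included TGACG (the cyclic AMP response half-site) and TGANTCA (the AP-1 site), and overlaps between motifs were allowed. Rln1 has 1 TATAAA match, which begins at -10, and Rxfp2 has no match to any of the 4 in the same window. In GENCODE, Rln3 and Rxfp3 reach to 84045000 and 11037991, so the last bases of both printed stretches lie inside the annotated genes. Among 27025 mouse upstream stretches of this length, 13.0% hold TATAAA, 13.8% AGGTCA, 17.9% TGACG and 6.87% TGANTCA. A match is a run of letters and not a shown binding site.

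Library totals ran from 35394603 to 47790178 counts. Levels are given as CPM, the count of a gene scaled to a common library total, with library sizes scaled by the TMM method, and 3 counts, the limit that a count of 0 allows, equal 0.0692 to 0.0810 CPM in a single library. The organ labels were checked by marker genes. The summed level of 4 uterus markers (Hoxa10, Hoxa11, Esr1, Pgr) was 1017 to 1175 CPM in uterus and 29.6 to 39.8 in brain, that of 4 smooth muscle markers 2696 to 3499 against 19.1 to 23.9, and that of 4 epithelial markers 413 to 524 against 4.40 to 6.51. Neuron markers summed to 4923 to 5097 CPM in brain against 2.16 to 4.17 in uterus, and glia markers to 5683 to 6266 against 15.4 to 18.3. Both labels therefore went with their markers. The 11 ovary and oviduct markers summed to 30.1 to 67.7 CPM in uterus and 51.8 to 57.3 in brain. Cyp19a1 and Fshr had 0 counts in every uterus library, and Fshr had only 2 counts in brain, in library 4. Other genes of the list were present in uterus. Star was at 9.34 to 14.3 CPM (12.8 to 13.8 in brain), Inha at 4.68 to 5.39 (22.1 to 29.8) and Ovgp1 at 12.9 to 51.5 (5.59 to 6.59). The remaining genes of the list reached at most 1.23 CPM in uterus. Pituitary markers (6 of 7 in the table) summed to 4.64 to 8.28 CPM in brain and 0.406 to 1.23 in uterus, where Prl, Gh and Cga had 0 counts. They were uneven in brain, where libraries 1 to 4 held 0, 91, 29 and 0 counts of Prl and 0, 54, 10 and 0 of Gh. The part of the pituitary markers in the brain levels below was not tested. Choroid plexus markers summed to 652 to 917 CPM in brain and 184 to 317 in uterus, where Aqp1, a water channel gene, made up 180 to 299 CPM (3.97 to 6.50 in brain). The defining choroid plexus gene Ttr was at 4.10 to 17.8 CPM in uterus against 613 to 863 in brain.

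The comparison of uterus with brain asks where this hormone system is transcribed in early pregnancy. Rxfp1 was the abundant gene of the system in uterus and stood about 18.9-fold above its level in brain, and Rxfp2 was 2.53-fold higher in uterus. Rln3 and Rxfp3, the neuropeptide and its receptor, were higher in brain, and Rln1 did not pass the test. All 5 genes passed the low-count filter, and 4 were called by the edgeR quasi-likelihood test at an adjusted p of 0.05, 2 higher in uterus and 2 higher in brain. Of all 16074 genes tested, 87.0% were called, 43.5% higher in uterus and 43.6% higher in brain, so a call by itself is common in this contrast. In bulk tissue, fewer cells of a type and less RNA per cell cannot be told apart, and that holds for every level below.

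**Figure D1:**
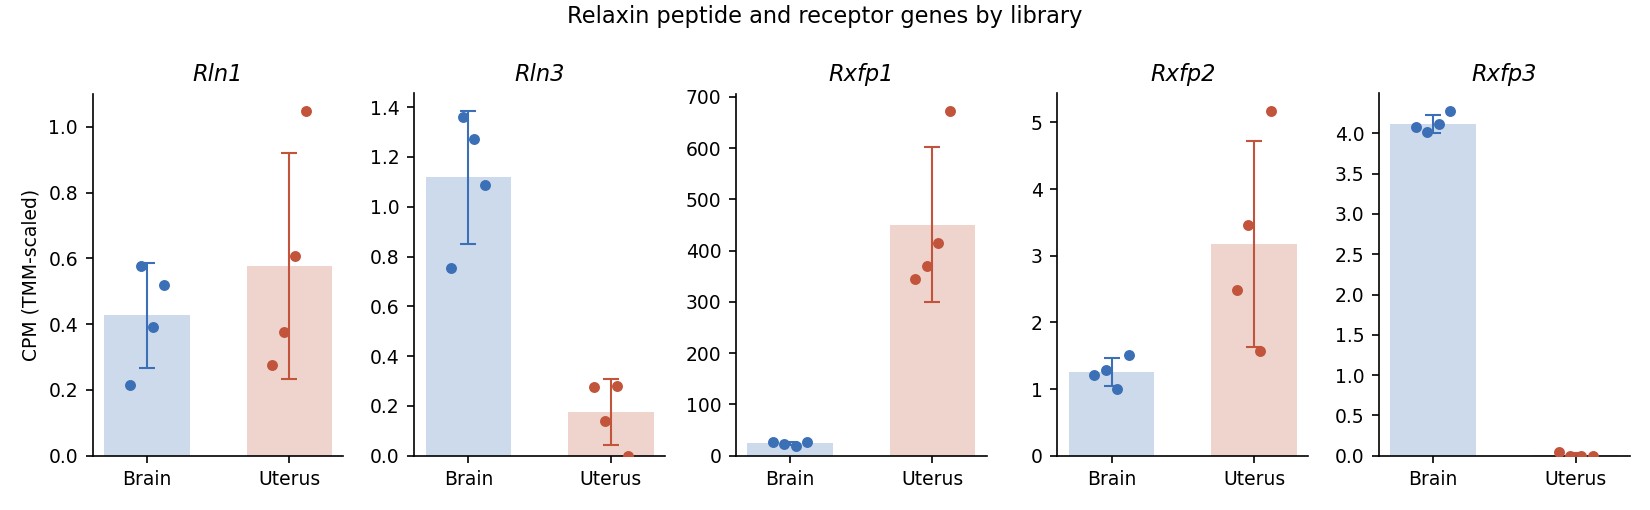
TMM-scaled CPM of the 5 genes, 1 panel per gene with its own vertical axis from 0. Bars are means, error bars SD over 4 libraries and points single libraries. Rxfp1 in uterus reaches 344 to 673 CPM against 19.4 to 26.8 in brain, the Rln1 organs overlap, and Rxfp3 in uterus lies at 0 in 3 of 4 libraries.

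Rln1, the relaxin gene (ENSMUSG00000039097, GRCm38 chromosome 19, 29331170 to 29334670, minus strand, 2 exons in its coding transcript), was low in both organs, with every library above its limit of 3 counts. Brain libraries 1 to 4 held 8, 25, 17 and 22 counts, or 0.216, 0.576, 0.393 and 0.520 CPM. Uterus libraries 1 to 4 held 11, 16, 24 and 45 counts, or 0.277, 0.376, 0.609 and 1.05 CPM. The organs overlapped, with uterus libraries 3 and 4 above every brain library and uterus libraries 1 and 2 within the brain range. The mean was 0.426 ± 0.160 CPM in brain and 0.578 ± 0.343 in uterus (SD, n = 4), and the log2 fold change of uterus over brain was 0.43 ± 0.46 (SE; 95% interval -0.60 to 1.46; edgeR adjusted p = 0.391). The interval reaches from a level below that of brain to one well above it, so neither a difference nor its absence was shown. Without uterus library 4 the value was -0.02.

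Rln3, the relaxin-3 gene (ENSMUSG00000045232, chromosome 8, 84042929 to 84045000, minus strand, 2 exons), was higher in brain. Brain libraries 1 to 4 held 28, 59, 55 and 46 counts, or 0.756, 1.36, 1.27 and 1.09 CPM. Uterus libraries held 11, 6, 11 and 0 counts, or 0.277, 0.141 and 0.279 CPM in libraries 1 to 3, and library 4 lay under its limit of 0.0699 CPM. Every brain library was above every uterus library, although brain library 1 was low among its group. The means were 1.12 ± 0.267 CPM in brain and 0.174 ± 0.133 in uterus (SD, n = 4), with a log2 fold change of -2.69 ± 0.57 (SE, edgeR adjusted p = 0.00118). The 28 uterine counts came from 3 libraries, and limma-voom gave -3.37.

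Rxfp1, the relaxin receptor gene (ENSMUSG00000034009, chromosome 3, 79641611 to 79737880, minus strand, 18 exons in its coding transcript), carried most of the counts of the 5 genes. Uterus libraries 1 to 4 held 13660, 15728, 16354 and 28877 counts, or 344, 370, 415 and 673 CPM. Brain libraries held 977, 993, 840 and 1134 counts, or 26.4, 22.9, 19.4 and 26.8 CPM. The organs were far apart, and uterus library 4 stood above the other uterus libraries, which lay close together. The means were 450 ± 151 CPM in uterus and 23.9 ± 3.46 in brain (SD, n = 4), with a log2 fold change of 4.24 ± 0.23 (SE; 95% interval 3.72 to 4.76; edgeR adjusted p = 3.8e-08). Of all tested genes, 4.97% had a larger change toward uterus. Without uterus library 4 the log2 fold change was 3.99.

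Rxfp2, the receptor gene for insulin-like peptide 3 (ENSMUSG00000053368, chromosome 5, 150018675 to 150082184, plus strand, 18 exons in its coding transcript), was low in both organs and higher in uterus. Uterus libraries 1 to 4 held 99, 147, 62 and 222 counts, or 2.49, 3.46, 1.57 and 5.17 CPM. Brain libraries held 45, 56, 43 and 64 counts, or 1.21, 1.29, 0.993 and 1.51 CPM. The organs did not overlap, but the lowest uterus library (1.57 CPM) was barely above the highest brain library (1.51 CPM). The means were 3.17 ± 1.54 and 1.25 ± 0.215 CPM (SD, n = 4), with a log2 fold change of 1.34 ± 0.34 (SE, edgeR adjusted p = 0.00392), or 1.02 without uterus library 4. An antisense gene, Gm42557, shares 294 exon bases with Rxfp2 on the opposite strand, and as the strand setting of the counting is not given in the sources used here, reads from it cannot be told apart from Rxfp2 reads.

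Rxfp3, the relaxin-3 receptor gene (ENSMUSG00000060735, chromosome 15, 11033717 to 11037991, minus strand, a single exon), had 684 counts in brain and 2 in uterus. Brain libraries 1 to 4 held 151, 174, 178 and 181 counts, or 4.07, 4.01, 4.11 and 4.28 CPM. Uterus library 1 held 2 counts and the other 3 held 0, with limits of 0.0699 to 0.0761 CPM. The brain libraries differed little, at 4.12 ± 0.115 CPM (SD, n = 4), a coefficient of variation of 2.78% where counting alone would give 7.65%. The ratio of brain to uterus was 339 (exact Poisson 95% interval 93.5 to 2806, counting error only; edgeR adjusted p = 5.4e-08). Of all tested genes, 3.07% had a lower log2 fold change. The fitted log2 fold change of -8.08 rests on the 2 uterine counts, is no bound, and moved to -10.41 without uterus library 1.

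**Figure D2:**
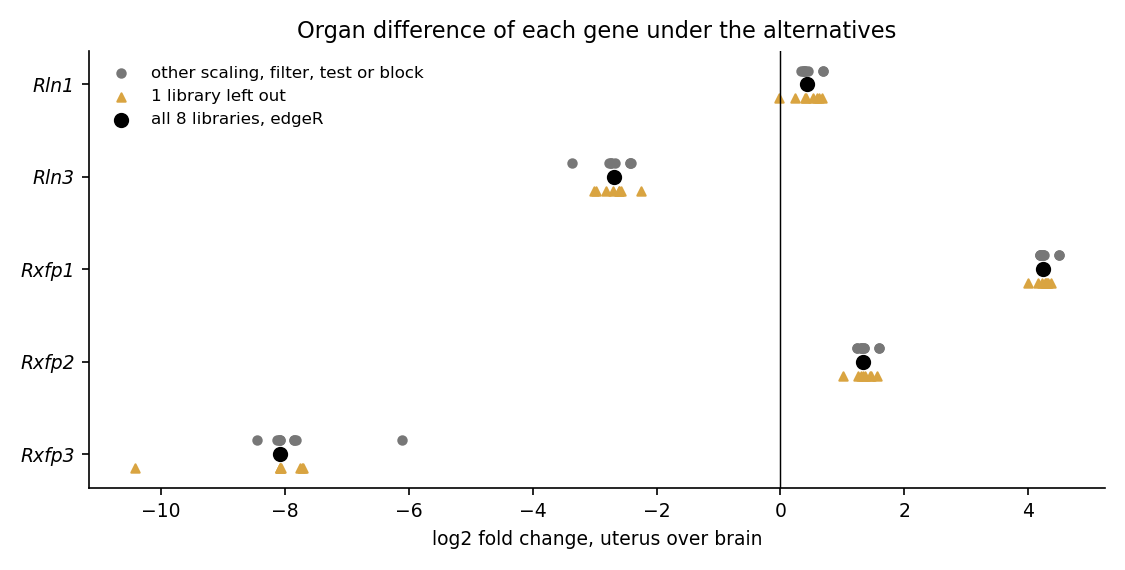
Log2 fold change of uterus over brain (horizontal axis) for each gene with all 8 libraries (black), under other scalings, filters, tests, prior count or a replicate block (grey) and with 1 library left out (triangles). Rxfp1 and Rxfp2 stay above 0 and Rln3 and Rxfp3 below 0, while Rln1 runs from -0.02 to 0.68; the left-most Rxfp3 triangle (-10.41) is the fit without uterus library 1.

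Levels of different genes can be set side by side only per length, so CPM per kilobase of merged exons was compared within each organ. In uterus Rxfp1 led at 44.8 ± 15.1 (SD, n = 4), 80.3 times the level of the next gene, Rxfp2, at 0.558 ± 0.271. On this per-length scale Rln3 was 0.275 ± 0.210, Rln1 0.165 ± 0.0981 and Rxfp3 0.00294 ± 0.00589. Rxfp1 did not overlap Rxfp2, and Rxfp3 did not overlap Rln1, but Rxfp2 with Rln3 and Rln3 with Rln1 had overlapping ranges. Of 19774 genes with a length, 95.7% had a lower mean level per length in uterus than Rxfp1, against 33.8% for Rxfp2 and 26.3% for Rln1.

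In brain the per-length levels of the 5 genes were closer together. Rxfp1 was 2.37 ± 0.344, Rln3 1.76 ± 0.422, Rxfp3 0.964 ± 0.0268, Rxfp2 0.220 ± 0.0377 and Rln1 0.122 ± 0.0457 (SD, n = 4). Rxfp1 and Rln3 overlapped, and Rln3 stood above Rxfp1 in brain library 3, while the other neighbours in this order did not overlap. Rxfp1 in brain ranked above 46.1% of genes and Rln3 above 42.5%. The order depends on the length used. The merged Rln1 exons include a transcript with a retained intron (3501 bases against 745 in the coding transcript). With coding transcript lengths, a choice made after seeing the data, Rln1 was 0.572 ± 0.215 in brain, above Rxfp2 at 0.494 ± 0.0846 in 3 of 4 libraries, and 0.775 ± 0.461 in uterus, above Rln3 at 0.275 ± 0.210 in 3 of 4 libraries with overlapping ranges. With those lengths Rxfp1 was first in all 8 libraries, brain library 3 included, at 83.7 ± 28.1 in uterus and 4.44 ± 0.642 in brain.

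**Figure D3:**
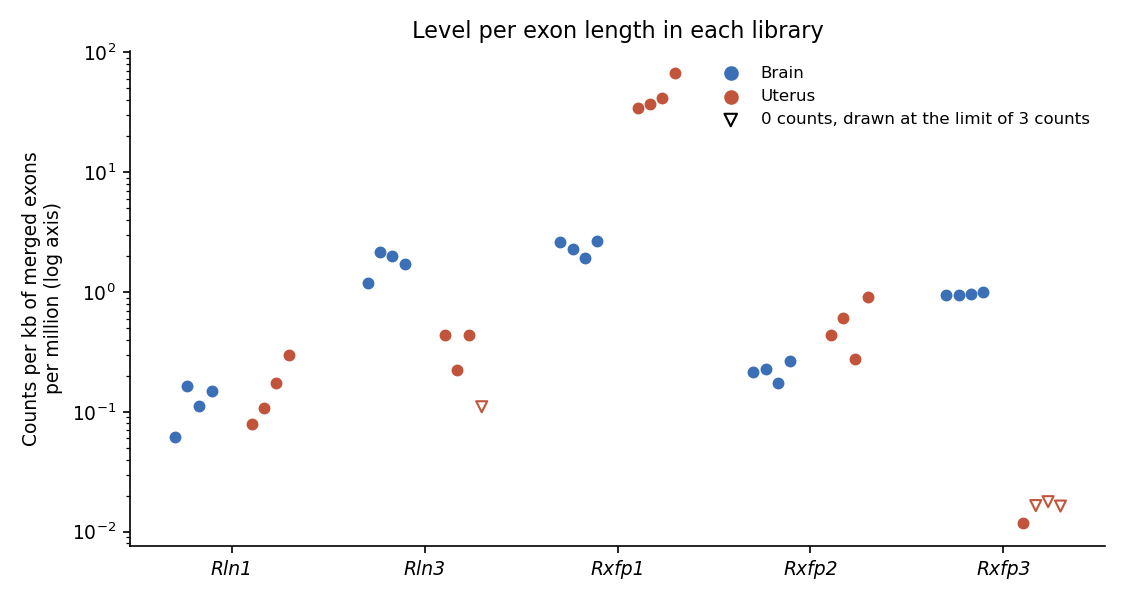
CPM per kilobase of merged exons on a log axis for the 5 genes, 1 point per library; open triangles are libraries with 0 counts, drawn at the limit of 3 counts. Rxfp1 in uterus (34.2 to 67.0) is above every other point, and the only uterine Rxfp3 point is the library with 2 counts (0.0118), which falls under that limit.

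Within a library, Rxfp1 exceeded its relative Rxfp2 per length by 10.0 to 12.3 times in brain and by 60.6 to 149 times in uterus. Each uterus library thus had a higher ratio than each brain library. Per length, Rxfp3 was 0.437 to 0.800 of the level of its ligand gene Rln3 over the 4 brain libraries. The share was highest (0.800) in brain library 1, where Rln3 was lowest, and reached 0.584 at most in libraries 2 to 4.

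The uterus libraries varied more than the brain libraries in Rxfp1, Rxfp2 and Rln1. The coefficient of variation of Rxfp1 was 33.6% in uterus and 14.5% in brain, where counting alone would give 0.732% and 3.18%. Among tested genes at 1 CPM or more in uterus, 94.3% had a lower coefficient of variation than Rxfp1 and 97.6% a lower one than Rxfp2 (48.5%). The same shares in brain were 87.3% for Rxfp1 and 90.9% for Rxfp2. For Rxfp1, a high rank in spread was therefore not particular to uterus. For Rxfp2 the brain spread was 17.1%, where counting alone would give 13.9%, so its brain rank rests largely on low counts. In uterus counting alone would give Rxfp2 8.69%. Rln1 varied by 59.5% in uterus, where counting alone would give 20.4%. Uterus library 4 was the highest of its group in all 3 of these genes, at 1.49, 1.63 and 1.82 times the uterine mean for Rxfp1, Rxfp2 and Rln1, and it was the one with 0 counts of Rln3. In the same library Pgr, the progesterone receptor gene, was highest at 263 CPM (151 to 186 in the others), and Ovgp1, an oviduct glycoprotein gene of the ovary and oviduct list, was highest at 51.5 CPM (12.9 to 32.1 in the others). The other 10 genes of that list summed to 16.2 CPM in library 4, the lowest of the group (17.2 to 21.8 in the others). The sum of the smooth muscle markers was lowest there, at 2696 CPM, and that of the epithelial markers highest, at 524 CPM. The part of these markers in the receptor levels was not tested.

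**Figure D4:**
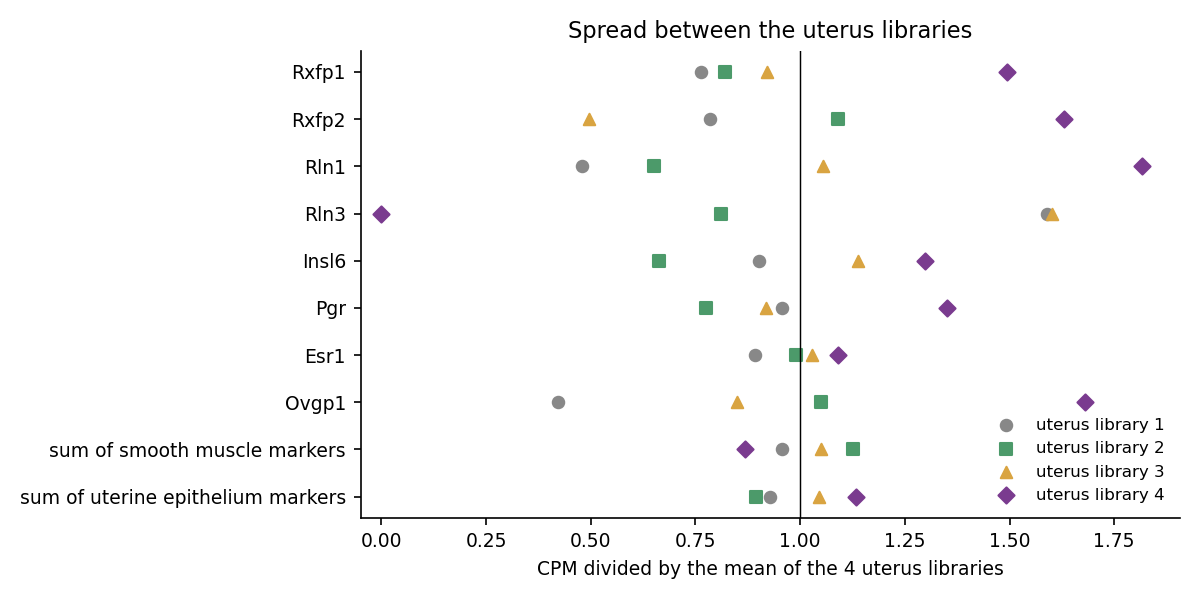
CPM in each uterus library divided by the mean of the 4 (horizontal axis; 1 is the mean) for 4 of the 5 genes, Insl6, Pgr, Esr1, Ovgp1 and 2 marker sums. Library 4 (diamonds) is highest for Rxfp1, Rxfp2, Rln1, Insl6, Pgr, Ovgp1, Esr1 and the epithelial sum. It is lowest for the smooth muscle sum and for Rln3, where it had 0 counts.

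The other genes of the family were also few in counts. Insl6, a peptide gene best known from the male germ line, lies 5813 bases from Rln1 on chromosome 19 (29321344 to 29325356) and was higher in uterus. Its uterus libraries 1 to 4 were at 3.78, 2.77, 4.77 and 5.43 CPM and its brain libraries at 0.270, 0.0922, 0.0462 and 0.189, with no overlap. Its log2 fold change was 4.81 ± 0.42 (SE, edgeR adjusted p = 1.4e-06), beside 0.43 for its neighbour Rln1; the difference between the genes was not tested. Insl3, the ligand gene of RXFP2, was at 1.31 ± 0.235 CPM in uterus and 0.186 ± 0.172 in brain (SD, n = 4; log2 fold change 2.79, edgeR adjusted p = 0.00114), and the log2 fold change was 3.58 without brain library 2 and 3.57 with limma-voom. It shares 404 exon bases with Jak3 on the same strand, so reads from the 2 genes cannot be fully separated. Insl5, the ligand gene of RXFP4, was higher in brain, at 1.32 ± 0.310 CPM against 0.0787 ± 0.0847 in uterus (log2 fold change -4.01, edgeR adjusted p = 7.1e-05), or -4.90 without uterus library 2 and -3.43 with a prior count of 2. Rxfp4 had 2 counts in brain library 3 and 0 in the other 7 libraries, and it was not tested.

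The genes around relaxin signalling were read from 10 lists with 74 tested genes, of which edgeR called 29 toward uterus and 39 toward brain and left 6 uncalled. That is 91.9% called, 39.2% toward uterus and 52.7% toward brain, beside 87.0%, 43.5% and 43.6% over all tested genes. Values in parentheses are log2 fold changes of uterus over brain with their SE. The median log2 fold change was -0.54, against 0.01 over all tested genes. Of 6 prohormone processing genes, uterus had the higher level of 2 and brain of 4 (median -2.39), with Pcsk2, a convertase of secretory granules, at 322 CPM in brain against 0.164 in uterus (-10.86 ± 0.37; -11.87 without uterus library 4) and Pcsk5 at 164 CPM in uterus against 13.0 (3.66 ± 0.14). Of 8 G protein and arrestin genes, 2 were called toward uterus and 6 toward brain (median -1.23), 5 with upper-quartile or library-size scaling, where Arrb2 was not called. Gnai3, an inhibitory subunit, was at 192 CPM in uterus against 51.4 (1.90 ± 0.06), and Gnao1, the abundant neuronal subunit, at 723 CPM in brain against 13.9 (-5.71 ± 0.10). Gnas, the gene of the stimulatory subunit, was at 76.4 CPM in brain against 17.7 in uterus (-2.11 ± 0.06), the opposite direction to Rxfp1.

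Among the effectors of cyclic AMP, 3 adenylyl cyclase genes were called toward uterus and 6 toward brain (median -2.58). That is 33.3% and 66.7%, beside 43.5% and 43.6% over all tested genes. Adcy4 was at 43.3 CPM in uterus against 5.76 (2.91 ± 0.08), and Adcy8, a calcium-stimulated neuronal cyclase, at 44.2 CPM in brain against 0.0907 (-8.88 ± 0.24). Of 9 protein kinase A and CREB genes, 2 (22.2%) were called toward uterus and 5 (55.6%) toward brain (median -1.29). Creb1, at 96.7 CPM in uterus and 91.6 in brain, and Prkar2a, at 90.1 and 87.1, were not called, but with upper-quartile or library-size scaling both were, toward uterus. Atf1, a CREB relative, was at 53.3 CPM in uterus against 13.2 (2.02 ± 0.06), and Prkar1b, a neuronal regulatory subunit, at 677 CPM in brain against 23.2 (-4.87 ± 0.09). The 10 phosphodiesterase genes were split 5 and 5 (4 toward uterus with RLE scaling, without Pde8a), with a median of -0.91. Among them was Pde3a, which degrades cyclic AMP in muscle and oocytes, at 67.7 CPM in uterus against 15.1 (2.17 ± 0.09) and Pde8b at 81.3 CPM in brain against 4.57 (-4.15 ± 0.10).

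Of 9 nitric oxide and cyclic GMP genes, 4 were called toward uterus and 5 toward brain (median -0.52). Toward brain it was 4 with upper-quartile or library-size scaling, where Gucy1a2 was not called. The main counts are 44.4% and 55.6%, beside 43.5% toward uterus and 43.6% toward brain over all tested genes. Nos3, the endothelial synthase gene, was at 24.6 CPM in uterus against 8.04 (1.62 ± 0.12), and Nos1, the neuronal one, at 97.2 CPM in brain against 0.553 (-7.44 ± 0.19). Of 11 matrix and vessel genes known to respond to relaxin in reproductive tissue, 9 were tested, since Aqp3 and Mmp13 fell under the low-count filter. Of these, 7 (77.8%) were called toward uterus and 1 (11.1%), the endothelin receptor gene Ednrb, toward brain. Ednrb changed by -0.57 ± 0.14 and was uncalled at -0.31 with library-size scaling. Mmp9 was not called, at 2.52 CPM in uterus and 1.92 in brain, but was called toward uterus with upper-quartile or library-size scaling. Their median log2 fold change was 5.79, and Col3a1, a fibrillar collagen gene, changed most (9.39 ± 0.14). No relaxin was given in this study, so this count describes the organs and not a response. Of 6 genes of nucleus incertus neurons, 5 (83.3%) were called toward brain, and Nmb, at 3.46 CPM in uterus and 3.32 in brain, was not. Over all tested genes 87.0% were called, 43.6% toward brain. The median was -10.97, or -10.89 with Crhr1 at its bound; most of these genes are expressed by many other neurons too. Crhr1, a receptor gene for corticotropin-releasing hormone, was at 42.0 CPM in brain and had 0 counts in uterus, at least 2314-fold lower. Of 5 tested leucine-rich repeat receptor genes related to Rxfp1 and Rxfp2, Lgr5 and Tshr were called toward uterus and Lhcgr toward brain (median -0.04, or 0.22 with upper-quartile or library-size scaling). Lgr4, at 46.0 CPM in uterus and 47.3 in brain, and Lgr6, at 9.17 and 11.8, were not called. Tshr, the thyrotropin receptor gene, was at 16.4 CPM in uterus against 0.630 (4.69 ± 0.26).

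**Figure D5:**
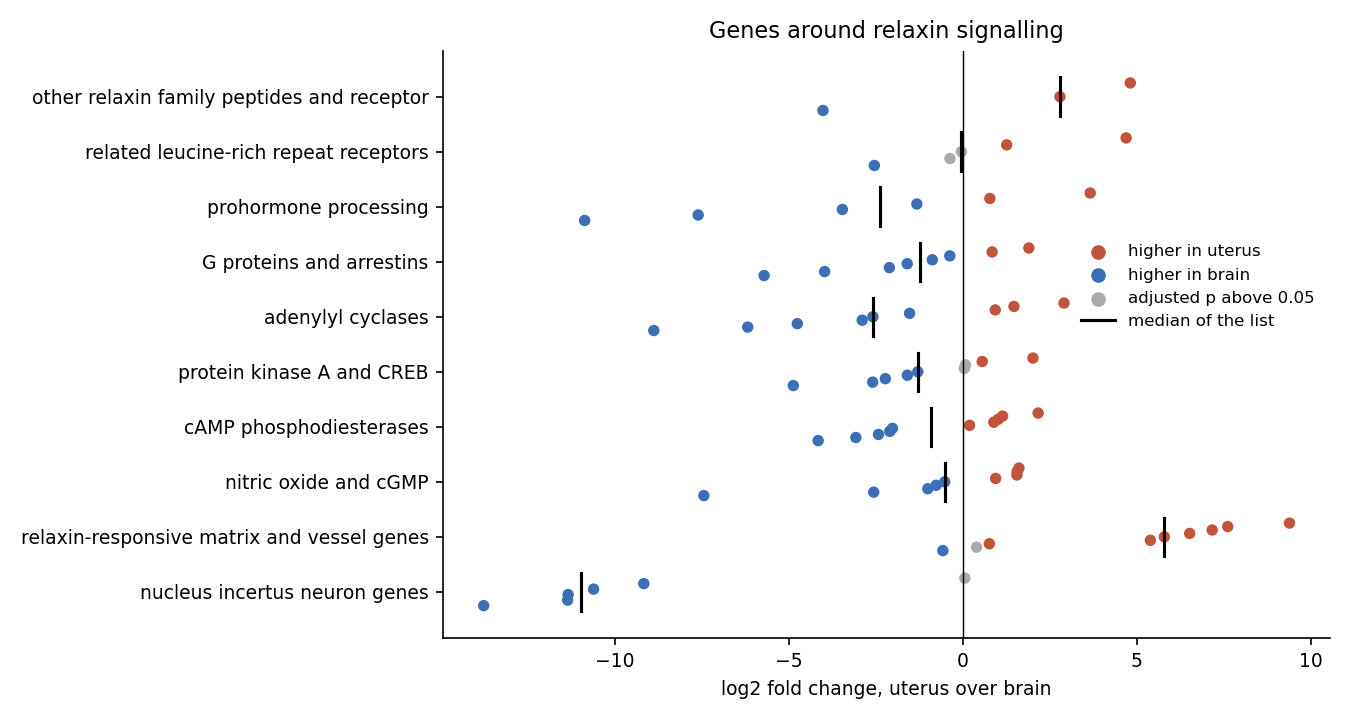
Log2 fold change of uterus over brain (horizontal axis) for the 74 tested genes of 10 lists, 1 point per gene, coloured by the edgeR call, with the median of each list as a black line. The matrix and vessel list has its median at 5.79 and the nucleus incertus list at -10.97; the left-most point, Crhr1, had 0 counts in uterus and its fitted value is no bound.

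Genes with a like pattern were sought by the Pearson correlation of log2 CPM over the 8 libraries, which share the organ difference and so give high values to many genes. Rxfp1 was most like Cggbp1, Reep3 and Metap2 (r of 0.999 or more for the first 2), and 4416 of 14256 genes reached 0.95. The correlation does not weigh the size of a change. Cggbp1, Reep3 and Metap2 were at 90.2, 68.8 and 119 CPM in brain and 161.5, 153 and 192 in uterus, smaller changes than that of Rxfp1. Rxfp3 was most like Rab9b, Kcna4 and Nt5c1a, and 4643 genes reached 0.95. Fewer genes followed the others: Rln3 was most like Podn (r = 0.986), Kcng1 and Armc9, with 49 genes at 0.95, and Rxfp2 most like Rad51c (r = 0.972), Mtmr14 and Pot1a, with 11. Rln1 was most like Dbnl (r = 0.906), Wdr66 and Tmem189, and no gene reached 0.95.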

How the data were processed

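Total RNA of 8 libraries, 4 per organ, was sequenced. The authors deposited raw read counts per gene, whole and not normalized. The submitters' processing notes name FastQC, HISAT2 2.0.3, featureCounts, edgeR and GRCm38.p5. The sources used here do not state the annotation release, the strand setting or how multi-mapped reads were counted. Positions and lengths came from GENCODE M21 on GRCm38 (19774 of 19884 identifiers matched), and upstream sequences from RefSeq on GRCm38.p6 (4 of the 5 genes matched).

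Genes were filtered with filterByExpr by organ (16074 tested), scaled by TMM and compared with the two-sided edgeR 4.0.16 quasi-likelihood F test in R 4.3.3, with Benjamini-Hochberg adjustment at 0.05 over all tested genes. The script was tested on simulated data. Totals were 35394603 to 47790178 counts per library, and the limits of 3 counts and the Poisson interval cover counting error only, since reads carry no molecular identifiers, while intervals of log2 fold changes come from the edgeR fit and include the spread between libraries. All pairs of libraries within an organ differed beyond sampling noise. Of the 5 genes, Rxfp2 shared 50-base windows of its coding transcript with another annotated transcript (206 of 2490, Gm42557) and the others shared none.

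The alternatives were scaling by RLE, by the upper quartile or by library size, 2 other low-count filters, DESeq2 1.42.0, limma-voom 3.58.1, a replicate block, a prior count of 2, other transcript lengths and leaving out each library. Genes named were the 5 genes, the called gene of each list with the largest change in each direction at 1 CPM or more, the other relaxin family genes, the 3 genes most like each of the 5 in pattern, and markers. Uncalled list genes, genes whose call changed with scaling, Gnas, Lgr5, Lhcgr, Pgr, Ovgp1, Star and Inha were added after their values were seen. The genes followed and the lists were chosen with earlier results of these data known.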

Additional observations from a re-analysis of the deposited data

Results flagged for a closer look

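In a group of 4 libraries, a library was taken as far from the rest when its gap to the nearest of the others, over the range of the group, exceeded Dixon's 95% critical value. Of 17 groups screened (9 relaxin family genes in 2 organs, without the group at 0 throughout), 2 met this. In both, only 1 library had counts, so the ratio was 1.0 whatever the count, and the flag was fixed in advance. The chance rate of about 1 in 20 behind the critical value does not apply to such groups. Both rest on 2 counts: Rxfp3 in uterus, where library 1 was at 0.0503 CPM and the others at 0, and Rxfp4 in brain, where library 3 was at 0.0462 CPM and the others at 0. Both values lie under the limit of 3 counts. Uterus library 4, the highest for Rxfp1 at 673 CPM (344 to 415 in the others), was not among them. In a group of 4, not being flagged does not show that a library is like the rest.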

How the results depend on the processing

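The organ difference of Rxfp1, Rxfp2, Rln3 and Rxfp3 kept its direction and its call under every alternative that gave a value. Ranges of the log2 fold change were 3.99 to 4.49 for Rxfp1, 1.02 to 1.59 for Rxfp2, -3.37 to -2.25 for Rln3 and -10.41 to -6.10 for Rxfp3, whose fitted values depend on the prior count. Rln1 stayed uncalled, with 0.33 to 0.68 under other scalings and tests and -0.02 to 0.67 when 1 library was left out; among all alternatives run its sign turned only without uterus library 4 (-0.017). The filter at 1 CPM in 4 libraries removed Rln1, Rln3 and Insl5, so it gave them no value. Upper-quartile and library-size scaling moved the median of all tested genes from 0.01 to 0.27. Levels per length moved with the length: with the longest transcript Rxfp1 was 4.44 in brain and 83.7 in uterus and Rxfp2 0.442 and 1.12, and with the coding transcript, added after seeing the data, Rxfp2 was 0.494 and 1.25 and Rln1 0.572 and 0.775. Rxfp3 in brain was 0.882 with library sizes alone. Of 322 values for 19 other genes, 321 kept direction and call, and the exception, Ednrb, was -0.31 with library-size scaling. These were the tested other relaxin family genes and the called list genes with the largest changes, which are the least likely to lose a call. Among the remaining list genes, the calls of Arrb2, Creb1, Prkar2a, Pde8a, Gucy1a2 and Mmp9 changed with scaling, and uncalled Lgr4 changed sign.

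Replicate numbers are shared by the organs, but deviations of same-numbered libraries correlated at -0.08, -0.01, 0.11 and 0.10, and not every library correlated best with its own number, so the numbers were not taken to pair the samples. A replicate block gave 13846 called genes against 13989, and 4.20 for Rxfp1, 1.24 for Rxfp2, -2.76 for Rln3, -8.09 for Rxfp3 and 0.37 for Rln1, with no call changed among these 5. Low counts limit uterine Rxfp3 (2 counts over 4 libraries), uterine Rln3 (28) and Rln1 (72 in brain and 96 in uterus).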
